A study of Danio rerio with 8 samples.

Results

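A group of 33 zebrafish genes gave no count in sorted fli1a:EGFP positive cells of the second sequencing run (run 2) and was counted in whole embryos. They were chosen from 35117 genes by 2 conditions on the read counts. The first condition was 0 counts in all 4 run 2 libraries of sorted cells (A_2a, A_2b, Q_2a and Q_2b). The second was at least 2 CPM (a gene's count scaled to a total of 1000000 counts on the genes of its library) in both whole embryo libraries (A_unsorted and Q_unsorted), which 15955 genes met. The 2 libraries of sorted cells from the first run (run 1, A_1 and Q_1) took no part in the choice.

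The sorted libraries were each made from 20000 EGFP positive cells of 3 days old Tg(fli1a:EGFP) zebrafish, in which the fli1a promoter drives the fluorescent protein. The unsorted libraries were each made from 1 whole embryo of 5 days. Library names starting with A had RNA isolated with the RNAqueous micro kit and those starting with Q with the RNeasy plus micro kit. All sorted cells came from 1 pool of fish, so differences between sorted libraries do not measure animal variation. A_2a with A_2b, and Q_2a with Q_2b, are technical replicates of 1 RNA. For sorted libraries of different kits, the paper proposes the kit or the sorted cell population as possible sources of variation. Run 1 and the embryos had the same number of cDNA amplification cycles, and run 2 had more. Run 2 also had a smaller volume of RNA into cDNA synthesis, and RNA of all sorted libraries was less concentrated than that of the embryos. The embryos were sequenced with the second set of libraries, and A_1 and Q_1 in an earlier run. Sorting, age, individual and RNA input therefore change together between sorted cells and embryos. Sequencing run changes as well for A_1 and Q_1, and amplification cycles for run 2, and their parts cannot be told apart.

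The fli1a promoter is active in endothelial cells of blood and lymph vessels and in cells of the pharyngeal arches that come from the neural crest. A whole embryo adds the lens, the pancreas, the liver and gut, the heart, the pituitary and the brain. Lens fibre cells fill with crystallins, acinar cells of the pancreas secrete zymogens, hepatocytes secrete plasma proteins, and endocrine cells release peptide hormones. In RNA from a whole animal, fewer cells of a type and less RNA per cell cannot be told apart.

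Counts on genes ranged from 10763174 to 19537939 per library. The run 2 libraries together held 63028459 counts, in which 3 counts, the limit that a count of 0 allows, correspond to 0.0476 CPM. The run 1 libraries together held 25523289 counts, with a limit of 0.1175 CPM. These limits cover counting error only. Of 6 genes listed as a check on sorting, 4 endothelial markers were matched by symbol, and fli1a and pecam1 were not. The 4 were higher in every sorted library than in both embryos. EGFL7, a secreted protein of endothelium, lay between 73.0 and 89.9 CPM in sorted cells, against 11.3 and 9.37 CPM in A_unsorted and Q_unsorted. The other 3 endothelial genes matched (kdrl, cdh5 and TIE1) also had their lowest sorted value above both embryo values. For TIE1 the gap was narrow, with 9.82 CPM in A_1 against 9.36 CPM in A_unsorted. In the run 1 comparison described below, 3 of the 4 genes were called higher.

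Because the embryo minimum and the count of 0 chose the genes, their levels are a description. Their mean embryo CPM ranged from 2.21 to 140.5 with a median of 7.20, against a median of 15.4 over all genes that met the minimum. Set against the pooled limit of 3 counts, the mean embryo level was 46.5-fold higher for the lowest gene and 2951-fold higher for the highest. As the genes were chosen for a count of 0, these folds are not lower bounds. For some of the genes the strand columns also held run 2 counts, as described further on. Of the 33 genes, 11 had a mean of at least 10 CPM, 10 lay from 5 to 10 CPM and 12 were below 5 CPM. The share of genes with 0 counts was 0.483% (12 of 2486) from 2 to 5 CPM and 0.103% (4 of 3876) from 20 to 50 CPM. It was 0 of 1465 from 50 to 100 CPM and 1 of 1294 above. A count of 0 did not stand apart from low counts: 20 other genes had 1 count over the 4 libraries, 15 had 2 and 30 had 3.

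**Figure D1:**
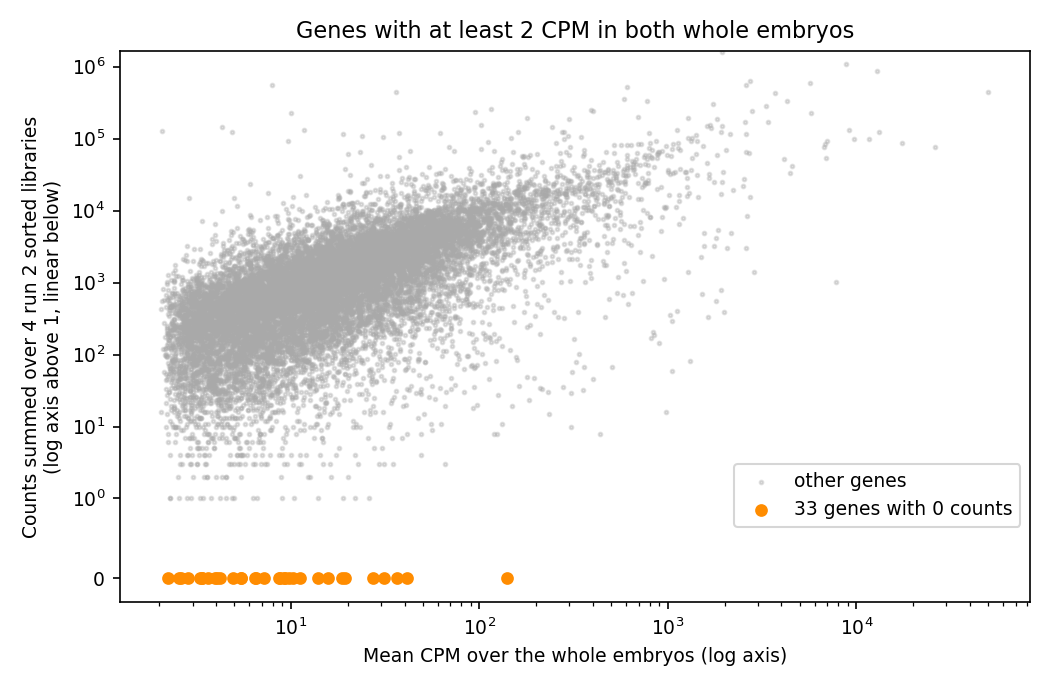
Counts summed over the 4 run 2 libraries of sorted cells (y axis, log above 1 and linear below) against mean CPM over the 2 whole embryos (x axis, log), 1 point per gene for the 15955 genes with at least 2 CPM in both embryos. The 33 genes with 0 counts, in orange, reach 140.5 CPM, and 1 of them lies above 50 CPM.

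Genes on either side of the conditions had near values. Just inside the minimum, by the lower of the embryo values, were DPEP1 with 2.15 CPM, ENSDARG00000069524 with 2.30 CPM and crp5 with 2.34 CPM. Just outside, also with 0 counts in run 2, were rgs1 with 1.95 CPM, BEST4 with 1.92 CPM and asgrl1 with 1.80 CPM. The genes of highest embryo level with 1 count over run 2 were ca4b, a carbonic anhydrase (23.6 and 28.2 CPM in A_unsorted and Q_unsorted), ENSDARG00000108554 (32.9 and 10.8 CPM) and SYCN (16.4 and 21.2 CPM), the syncollin of pancreatic zymogen granules.

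The run 1 libraries, which the choice did not use, gave few counts on these genes. Of the 33 genes, 19 (57.6%) had 0 counts in A_1 and in Q_1. Of the 15955 genes with the embryo minimum, 102 (0.639%) had 0 counts in both. Of the 65 genes with 1 to 3 counts over run 2, 24 (36.9%) had 0 counts in run 1, so the genes just outside the condition were also mostly low or absent there. The 19 genes were 18.6% of the genes at 0 in run 1. Of the other 14 genes, 11 had 1 to 3 counts over the 2 libraries and 3 had more: gnrh3, nppa and GOLT1A. Counts were found in A_1 for 12 genes, in Q_1 for 6 and in both for 4 (afp4, RNF182, gnrh3 and si:dkey-146l2.3).

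Summed over the 33 genes, A_1 held 2.17 CPM (32 counts) and Q_1 held 4.18 CPM (45 counts), against 540.0 CPM in A_unsorted and 426.5 CPM in Q_unsorted. Without gnrh3 the sums were 1.49 and 1.02 CPM in A_1 and Q_1, against 535.8 and 422.3 CPM in A_unsorted and Q_unsorted. Most of what Q_1 held of these genes was therefore gnrh3.

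**Figure D2:**
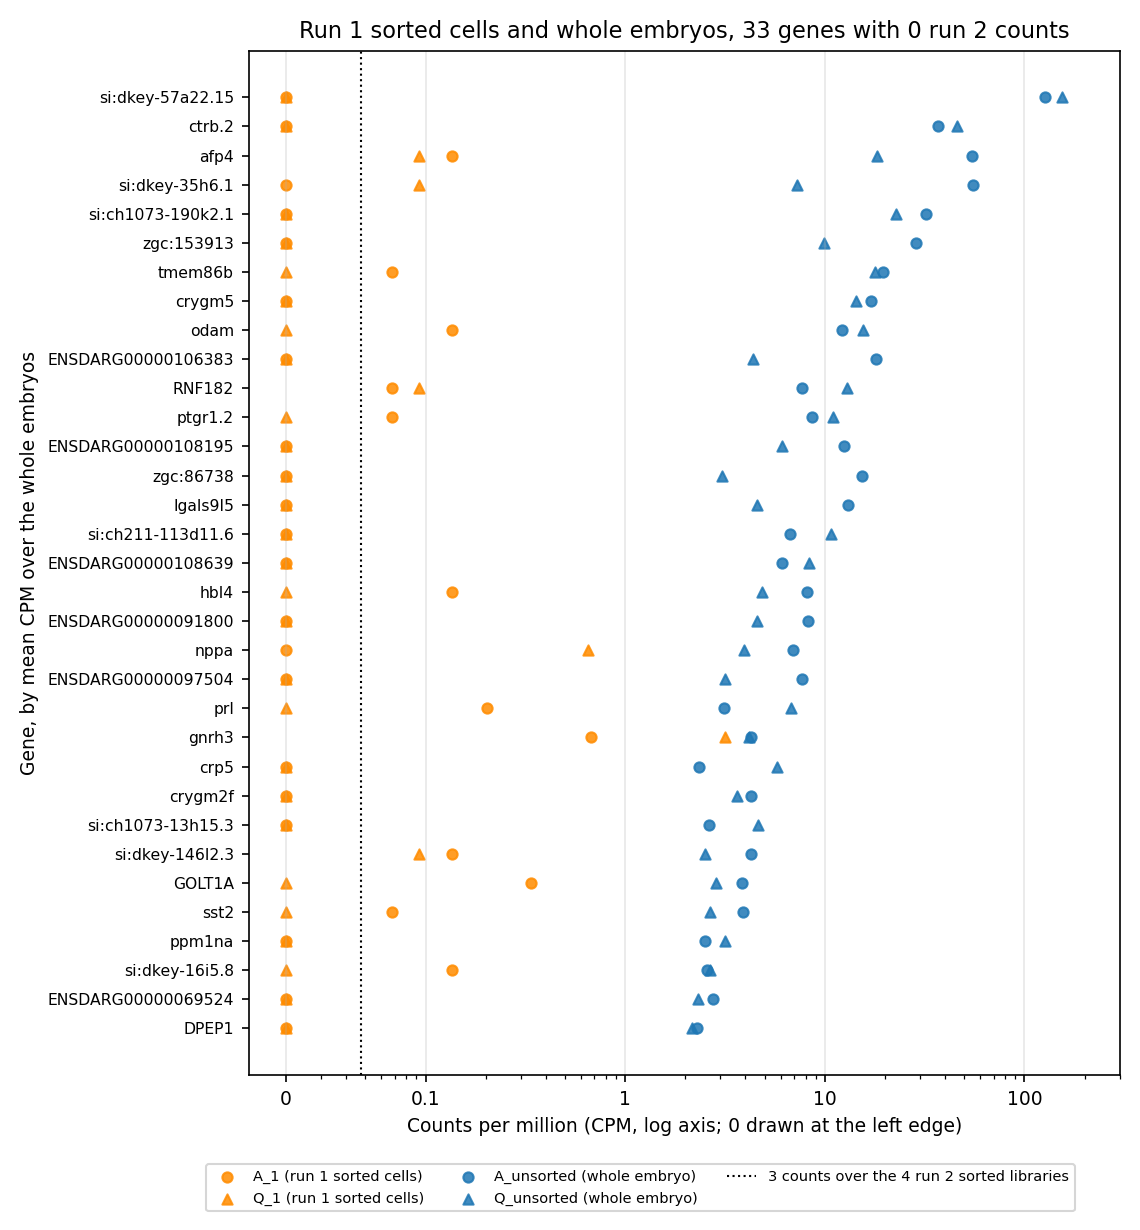
CPM (x axis, log, 0 drawn at the left edge) of the 33 genes (rows, by mean embryo CPM) in run 1 sorted cells (A_1 and Q_1) and in whole embryos (A_unsorted and Q_unsorted). The dotted line marks 0.0476 CPM, the limit of 3 counts over the 4 run 2 libraries, where all of these genes had 0 counts. The gnrh3 value in Q_1, at 3.16 CPM, lies closest to the embryo values.

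Run 1 sorted cells were compared with the whole embryos by edgeR's quasi-likelihood test over 20254 genes, with Benjamini-Hochberg adjustment. Of all genes tested, 5159 were lower in sorted cells (25.5%) and 3511 higher at an adjusted p of 0.05. All 33 genes entered the test through their embryo counts, and 32 were lower, none higher. As the embryo minimum had already fixed a high value on one side, the 32 are read as a description. The comparison also sets one sequencing run against another. With 1 pool of fish on one side and 1 embryo per kit on the other, the p-values measure the spread between these libraries only. The adjusted p of the 32 ran between 3.42e-06 for si:dkey-57a22.15 and 0.00435 for GOLT1A. The remaining gene was gnrh3, with a log2 change of -1.01 (SE 0.62, adjusted p = 0.210).

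Of the gamma M crystallins, fish proteins of the lens fibre cell, crygm5 and crygm2f were among the 33, and so was a clone-named gene that lies among gamma M crystallin genes. The gene of highest embryo level among the 33 was si:dkey-57a22.15, which had 0 counts in each of the 6 sorted libraries, against 126.5 and 154.4 CPM (2110 and 3017 counts) in A_unsorted and Q_unsorted. Its product has no name in the tables used, and in RefSeq's gene order (assembly GRCz12tu) it lies between crygm6 and crygm1. Those neighbours had 0 counts in every library, embryos included. crygm5 had 0 counts in all sorted libraries, against 16.97 and 14.3 CPM in A_unsorted and Q_unsorted. crygm2f had 0 counts in all sorted libraries, against 4.26 and 3.63 CPM in A_unsorted and Q_unsorted. In the same gene order crygm2f and crygm5 are direct neighbours, and si:dkey-57a22.15 lies 31 and 32 genes away from them.

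The crygm2d genes, the most numerous of the gamma M crystallins measured, were low in sorted cells but not absent. The 18 of them had mean embryo levels between 34.4 and 1994 CPM and 7 to 777 counts over the 4 run 2 libraries. Their pooled run 2 level was 0.0902% to 0.736% of the embryo level. Among family genes with a mean embryo level of at least 2 CPM, the highest was 16.4% for crygmx (3961 counts). Below that level, crygm4 reached 56.2% with 10 counts, at a mean embryo level of 0.282 CPM. In run 1 the crygm2d genes had 47 to 1206 counts, and all 18 were lower than in the embryos by edgeR (log2 change -7.73 to -2.67). Over all genes tested, 25.5% were lower. At the run 1 ratios of the crygm2d genes, the embryo level of si:dkey-57a22.15 corresponds to 14.2 to 469 counts over A_1 and Q_1, where it had 0. This gene is placed with them by gene order alone, and whether their ratios apply to it was not tested. The same ratios give 1.56 to 51.5 counts over run 1 for crygm5 and 0.393 to 13.0 for crygm2f, which also had 0. crygm2e, the gamma M crystallin nearest to crygm2f in embryo level (4.86 and 4.71 CPM in A_unsorted and Q_unsorted), had 8 counts over run 1 and 3 over run 2. The counts leave out reads that map to several places, in every library. Such reads were 11.1% in Q_unsorted, 6.3% in A_unsorted and 5.5% to 6.9% in the sorted libraries. How many of them belong to these genes was not tested.

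**Figure D3:**
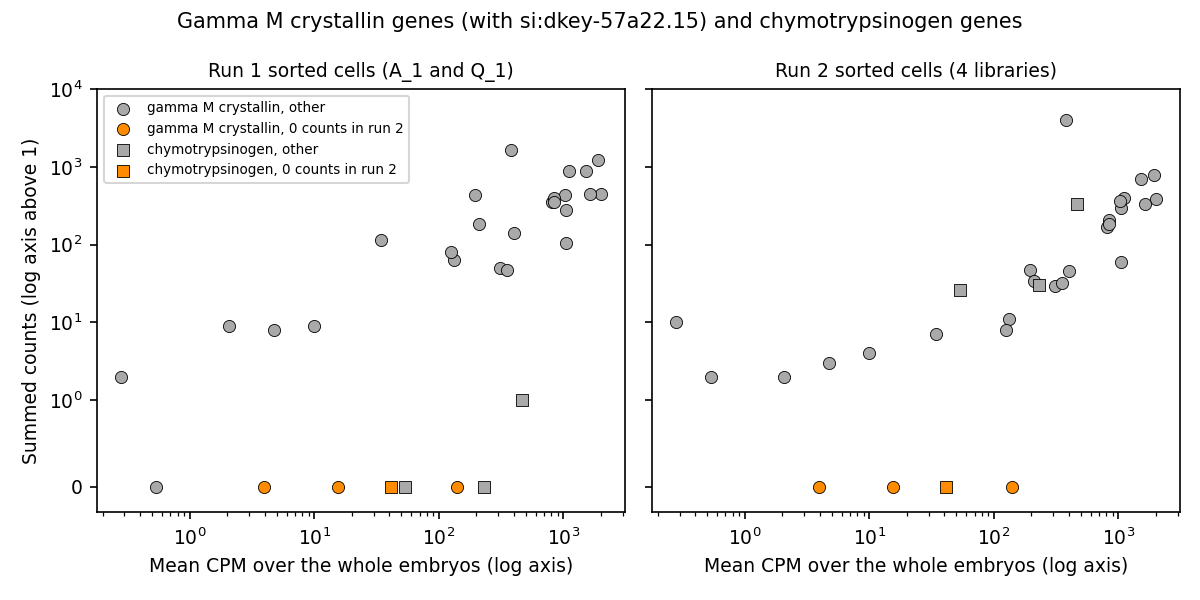
Summed counts (y axis, log above 1) in run 1 sorted cells (left) and run 2 sorted cells (right) against mean CPM over the whole embryos (x axis, log) for gamma M crystallin genes with si:dkey-57a22.15, placed with them by gene order alone (circles), and chymotrypsinogen genes (squares), 1 point per gene with an embryo level above 0. Orange points are the 4 genes with 0 counts in run 2, which also had 0 counts in run 1, among them si:dkey-57a22.15 at 140.5 CPM.

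A marker list of lens genes had counts in all sorted libraries as a sum, and its part in the crystallin counts was not tested. The list holds crygm3, itself a gamma M crystallin, which had 0 counts in A_2a, Q_2a and Q_2b. Of the 17 symbols listed, 10 were matched to genes, and the others were not checked. The 10 genes summed to 269.0 and 575.5 CPM in A_1 and Q_1 and to between 216.9 and 305.0 CPM in run 2. In A_unsorted and Q_unsorted the sums were 7737 and 6640 CPM. Of the list's 7 genes with the embryo minimum, the lowest had 19 counts over run 2, so none was among the 33. Of 9 lens genes tested in run 1, 8 were lower than in the embryos, with a median log2 change of -3.54. Over all genes tested in that comparison, 25.5% were lower, with a median of -0.057. Of 28 photoreceptor symbols listed, 19 were matched, to 24 genes. Of these 24 genes 19 met the embryo minimum and none was among the 33. As the choice took 33 of 15955 genes with that minimum, lists this short would hold few or none. Of 22 photoreceptor genes tested, 20 were lower, with a median of -4.47. Of 24 neurotransmitter receptor symbols listed, 11 were matched. Of these 11 genes 8 met the embryo minimum, none was among the 33 and 9 were lower, with a median of -1.94. The erythroid list went the other way: of 2 genes tested none was lower and 1 was higher, with a median of 0.99. Its 3 matched genes, of 4 symbols listed, summed to 5493 and 2346 CPM in A_1 and Q_1 and to between 974.6 and 1876 CPM in run 2. The sums were 1424 and 1296 CPM in A_unsorted and Q_unsorted.

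Digestive enzymes and peptidases, as grouped by name, gave 2 of the 33 genes, ctrb.2 and DPEP1, a class that held 0.332% of all genes with the embryo minimum. ctrb.2, a chymotrypsinogen of the exocrine pancreas, had 0 counts in all 6 sorted libraries, against 36.9 and 45.7 CPM in A_unsorted and Q_unsorted. In RefSeq's gene order it lies between its relatives ctrb.3 and ctrb.1, which were counted in run 2. ctrb.1 had 0.287 and 0.845 CPM in A_2a and A_2b and 9.85 and 9.21 CPM in Q_2a and Q_2b, against 340.1 and 589.6 CPM in A_unsorted and Q_unsorted. In run 1 ctrb.1, ctrb.3 and ctrl each had at most 1 count, and ctrb.2 had 0. DPEP1, named for a dipeptidase of the mammalian kidney brush border, had 0 counts in all sorted libraries, against 2.28 and 2.15 CPM in A_unsorted and Q_unsorted. The exocrine pancreas list held 19 symbols, of which 10 were matched, to 12 genes. Of these 12 genes, 9 met the embryo minimum and none was among the 33. In run 1, 11 of the 12 tested were lower than in the embryos and 1 was higher, with a median log2 change of -7.64. Over all genes tested, 25.5% were lower, with a median of -0.057.

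Immune and lectin genes, as grouped by name, were 3 of the 33 (crp5, hbl4 and lgals9l5), a class that held 0.677% of all genes with the embryo minimum. Outside that class, afp4 (ENSDARG00000041490), named for a type IV antifreeze protein, an apolipoprotein-like secreted protein of fish, had 2 counts in A_1 and 1 in Q_1, against 54.6 and 18.2 CPM in A_unsorted and Q_unsorted. A second gene of that name (ENSDARG00000095863) had 49 counts over run 1 and 103 over run 2, against 479.8 and 192.8 CPM in A_unsorted and Q_unsorted. At that gene's ratio in run 1, which the choice did not use, the first corresponds to 5.27 counts, where it had 3. crp5, a member of the C-reactive protein family of acute phase pentraxins, had 0 counts in all sorted libraries, against 2.34 and 5.73 CPM in A_unsorted and Q_unsorted. Its relative crp3, at a similar embryo level (4.08 and 6.04 CPM), had 4 counts over run 1 and 7 over run 2. Of the run 2 counts of crp3, 3 were in Q_2a and 4 in Q_2b, with 0 in A_2a and A_2b. The liver and gut list held 17 symbols, of which 15 were matched, to 17 genes. Of these 17 genes, 15 met the embryo minimum and none was among the 33. All 15 tested in run 1 were lower than in the embryos, with a median log2 change of -6.43. Over all genes tested, 25.5% were lower, with a median of -0.057.

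Among lectins, hbl4, a hexose-binding lectin, had 2 counts in A_1 and 0 in the other sorted libraries, against 8.10 and 4.86 CPM in A_unsorted and Q_unsorted. Its relative hbl2 was higher in every sorted library than in both embryos, though low throughout. It had 3.05 and 1.30 CPM in A_1 and Q_1 and 0.338 to 1.77 CPM in run 2, against 0.300 and 0.256 CPM in A_unsorted and Q_unsorted. The lowest of these sorted values, in A_2b, rests on 4 counts. The other relative, hbl1, had a pooled run 2 level of 95.2% of the embryo level. In run 1 hbl1 was called neither lower nor higher (log2 change 1.22, adjusted p = 0.0884 by edgeR). lgals9l5, of the galectin family of sugar-binding proteins, had 0 counts in all sorted libraries, against 13.0 and 4.56 CPM in A_unsorted and Q_unsorted. lgals9l3, of the same family, had 18.3 to 27.4 CPM in the sorted libraries, against 19.7 and 17.6 CPM in A_unsorted and Q_unsorted. The other relatives were lower. lgals9l1 had a pooled run 2 level of 21.2% of the embryo level. lgals9l6 had 0 counts in all sorted libraries, against 0.0600 and 0.0512 CPM in A_unsorted and Q_unsorted, and lgals9l4 had 0 counts in every library.

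Peptide hormones made up 4 of the 33 genes (12.1%), against 0.407% of all genes with the embryo minimum that fall in the class of hormones, neuropeptides and synaptic genes. For gnrh3 and sst2 the count of 0 is uncertain, as the strand columns held run 2 counts, and without the genes with such counts the class held 2 of 29. The endocrine list held 15 symbols, of which 10 were matched, to 11 genes. Of these 11 genes 6 met the embryo minimum, and prl alone was among the 33. In run 1 sorted cells, 6 of the 7 tested were lower than in the embryos (median log2 change -3.52), against 25.5% of all genes tested (median -0.057). prl encodes prolactin of the pituitary. It had 3 counts in A_1 and 0 in the other sorted libraries, against 3.12 and 6.76 CPM in A_unsorted and Q_unsorted. sst2 encodes a somatostatin family peptide and had 1 count in A_1 and 0 in the other sorted libraries, against 3.90 and 2.66 CPM in A_unsorted and Q_unsorted, with a few run 2 reads in the strand columns. Another somatostatin gene, SST, had 19.1 and 6.97 CPM in A_1 and Q_1, 1.72 and 2.87 CPM in A_2a and A_2b, and 30.9 and 31.0 CPM in Q_2a and Q_2b. In A_unsorted and Q_unsorted it had 30.2 and 35.7 CPM. It was the highest of the 4 other somatostatin genes, with a pooled run 2 level of 53.5% of the embryo level. The level was 4.02% for sst1.2, 5.33% for sst6 and 14.8% for sst7.

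nppa encodes the natriuretic peptide of the heart atrium. It had 0 counts in A_1, 7 in Q_1 (0.650 CPM) and 0 in run 2, against 6.96 and 3.94 CPM in A_unsorted and Q_unsorted. In run 1 sorted cells it was lower by edgeR (log2 change -3.98, SE 0.87, adjusted p = 0.00301). As the embryo minimum had fixed a high value on one side, this is a description. The log2 change was -2.91 without A_1 and -9.41 without Q_1, where no sorted count remains and the value depends on the prior count. Its relative nppal, at 8.34 and 7.22 CPM in A_unsorted and Q_unsorted, was counted in every sorted library, with 1.56 and 1.30 CPM in A_1 and Q_1 and 0.189 to 0.845 CPM in run 2. The muscle list held 11 symbols, of which 7 were matched, to 8 genes. Of these 8 genes 7 met the embryo minimum, and nppa alone was among the 33. Of the 8, 6 were lower in run 1 (median log2 change -2.08), against 25.5% of all genes tested (median -0.057). The list summed to 7824 and 12730 CPM in A_1 and Q_1, against 58000 and 61890 CPM in A_unsorted and Q_unsorted. nppc, a natriuretic peptide also made by endothelium in mammals, lay between 6.82 and 23.8 CPM in sorted cells, against 6.42 and 4.15 CPM in A_unsorted and Q_unsorted. The remaining relatives had few counts in sorted cells. nppb had 1 count over run 1 and 3 over run 2, against 2.46 and 0.665 CPM in A_unsorted and Q_unsorted. nppcl had 6 counts over run 1 and 2 over run 2, against 3.24 and 3.63 CPM in A_unsorted and Q_unsorted.

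gnrh3, a gonadotropin-releasing hormone of terminal nerve and hypothalamic neurons in zebrafish, was the gene with most run 1 counts. It had 10 counts in A_1 and 34 in Q_1 (0.678 and 3.16 CPM) and 0 in run 2, against 4.26 and 4.15 CPM in A_unsorted and Q_unsorted. Q_1 lay near the embryos and A_1 below them. Its run 2 count of 0 holds only in the column that ignores strand, as described further on. With A_1 alone on the sorted side, assumed to vary like the embryos, its log2 change was -2.28. Without A_1 it was -0.30.

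Among enzymes and other named genes, some had relatives that were high in sorted cells. ptgr1.2, a prostaglandin reductase, had 1 count in A_1 and 0 in the other sorted libraries, against 8.58 and 10.95 CPM in A_unsorted and Q_unsorted. Its neighbour ptgr1.1 had 72.5 and 57.1 CPM in A_1 and Q_1 and 44.5 to 65.0 CPM in run 2, against 32.0 and 45.4 CPM in A_unsorted and Q_unsorted. GOLT1A, named for a Golgi transport protein, had 5 counts in A_1 and 0 in the other sorted libraries, against 3.84 and 2.87 CPM in A_unsorted and Q_unsorted (log2 change -3.83, SE 0.89 by edgeR). Without Q_1 its log2 change was -2.93, and without A_1, where no sorted count remains, -8.68. One of the genes named GOLT1B had 70.4 to 121.1 CPM in sorted cells, against 32.9 and 40.6 CPM in A_unsorted and Q_unsorted. The other GOLT1B gene had 10.2 to 14.3 CPM in sorted cells, against 7.80 and 10.65 CPM in A_unsorted and Q_unsorted.

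tmem86b, named for a lysoplasmalogenase of mammals, had 1 count in A_1 and 0 in the other sorted libraries, against 19.6 and 17.9 CPM in A_unsorted and Q_unsorted. odam, named for a secreted protein of tooth enamel organs in mammals, had 2 counts in A_1 and 0 in the other sorted libraries, against 12.2 and 15.5 CPM in A_unsorted and Q_unsorted. In RefSeq's gene order it lies close to ambn and scpp9, genes of the same family of secreted mineral-associated proteins. RNF182, a RING finger gene, had 1 count each in A_1 and Q_1, against 7.68 and 12.9 CPM in A_unsorted and Q_unsorted. ppm1na, a protein phosphatase, had 0 counts in all sorted libraries, against 2.52 and 3.17 CPM in A_unsorted and Q_unsorted, while ppm1nb had 0.542 to 2.28 CPM in sorted cells, against 25.7 and 16.9 CPM in A_unsorted and Q_unsorted.

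Genes named only after a clone were 9 of the 33 (27.3%), against 7.95% of all genes with the embryo minimum, and genes without a name were 6 (18.2%), against 4.43%. Other named genes were 6 (18.2%), against 79.9%. After si:dkey-57a22.15, the clone-named genes of highest embryo level were si:dkey-35h6.1, si:ch1073-190k2.1 and zgc:153913. si:dkey-35h6.1 had 1 count in Q_1 and 0 in the other sorted libraries, against 55.0 and 7.27 CPM in A_unsorted and Q_unsorted. si:ch1073-190k2.1 and zgc:153913 had 0 counts in all sorted libraries. In A_unsorted and Q_unsorted the first had 32.0 and 22.7 CPM and zgc:153913 had 28.6 and 9.88 CPM. zgc:86738 likewise had 0 counts in sorted cells, against 15.3 and 3.07 CPM in A_unsorted and Q_unsorted. si:dkey-16i5.8 had 2 counts in A_1 and 0 in the other sorted libraries, against 2.58 and 2.66 CPM in A_unsorted and Q_unsorted. si:ch211-113d11.6 had 0 counts in all sorted libraries, against 6.66 and 10.7 CPM in A_unsorted and Q_unsorted. All 6 genes without a name had 0 counts in all 6 sorted libraries. The highest of them were ENSDARG00000106383 (18.0 and 4.35 CPM in A_unsorted and Q_unsorted) and ENSDARG00000108195 (12.5 and 6.09 CPM).

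The counts above come from a column that ignores strand and drops a read when genes overlap on opposite strands. The files also count each strand apart, which keeps such reads. The cDNA protocol does not mark strand, so reads of a gene and of an overlapping partner cannot be told apart. For 29 of the 33 genes the strand columns also held 0 counts in all run 2 libraries, and for 4 they did not. In the strand-free column si:dkey-146l2.3 had 2 counts in A_1 and 1 in Q_1, against 4.26 and 2.51 CPM in A_unsorted and Q_unsorted. It had 228 and 151 strand column counts in A_2a and A_2b and 302 and 366 in Q_2a and Q_2b. gnrh3 had 43 and 8 in A_2a and A_2b and 33 and 42 in Q_2a and Q_2b. sst2 had 5 and 0 in A_2a and A_2b and 7 and 6 in Q_2a and Q_2b, and si:ch211-113d11.6 had 1 in Q_2b. In the embryos the strand columns held 32.7 times the strand-free count for si:dkey-146l2.3, 5.18 times for sst2 and 1.31 times for gnrh3, against 1.0 to 1.44 times for the remaining genes. The count of 0 in sorted cells is therefore uncertain for si:dkey-146l2.3, gnrh3 and sst2. Without the 4 genes, 29 remain, of which 18 had 0 counts in run 1 and all 29 were lower than in the embryos by edgeR. Of all genes with the embryo minimum, 0.639% had 0 counts in run 1, and of all genes tested, 25.5% were lower. The embryo minimum had already fixed a high value on one side, so the 29 are a description.

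**Figure D4:**
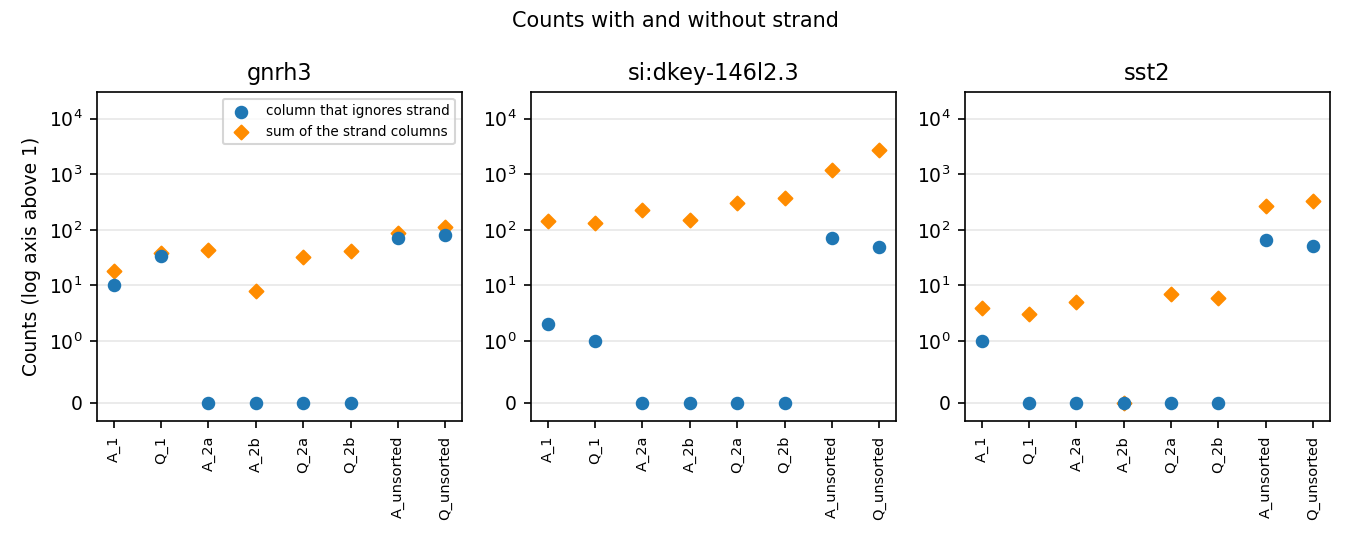
Counts (y axis, log above 1) of gnrh3, si:dkey-146l2.3 and sst2 in each library (x axis, sorted libraries left of the embryos), from the column that ignores strand (blue circles) and as the sum of the strand columns (orange diamonds). In the run 2 libraries the blue points lie at 0, and the sums over the 4 libraries are 126, 1047 and 18 counts.

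The embryos themselves differed on these genes. With 1 embryo for each kit, kit and individual cannot be told apart and there is no test. The median log2 ratio of A_unsorted over Q_unsorted was 0.24 over the 33 genes, close to 0.20 over all genes with the embryo minimum, but the spread was wider. The median absolute ratio was 1.61-fold, against 1.29-fold over the 15023 genes in the same range of embryo level. Of the 33 genes, 10 (30.3%) differed by at least 2-fold, against 9.27% of those genes. Of these 10, 8 were higher in A_unsorted and 2 in Q_unsorted. The tilt was also present in the 1393 genes of that range that differed by at least 2-fold. Of those, 1252 were higher in A_unsorted and 141 in Q_unsorted. The genes of that range were not matched to the 33 on level. The 33 had a median embryo level of 7.20 CPM, against 15.4 CPM over all genes with the embryo minimum. Whether the wider spread goes with the lower level was not tested.

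Genes higher in A_unsorted were led by si:dkey-35h6.1 (7.57-fold), zgc:86738 (4.98-fold) and ENSDARG00000106383 (4.14-fold). Those higher in Q_unsorted were led by crp5 (2.45-fold), prl (2.17-fold) and si:ch1073-13h15.3 (1.75-fold), the last with 2.64 and 4.61 CPM in A_unsorted and Q_unsorted. TMM scaling moves every ratio by -0.23 (log2). With it the members' median was 0.0096, with 17 genes higher in A_unsorted and 16 in Q_unsorted (21 and 12 without it). Of the members, 10 (30.3%) differed by at least 2-fold, 7 higher in A_unsorted and 3 in Q_unsorted. Over all 15955 genes with the embryo minimum, the TMM median was -0.032, with 7582 genes higher in A_unsorted and 8373 in Q_unsorted. Of these, 942 (5.90%) differed by at least 2-fold, 583 higher in A_unsorted and 359 in Q_unsorted. The crystallins crygm5 and crygm2f, si:dkey-57a22.15 and ctrb.2 differed by at most 1.24-fold between the embryos.

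**Figure D5:**
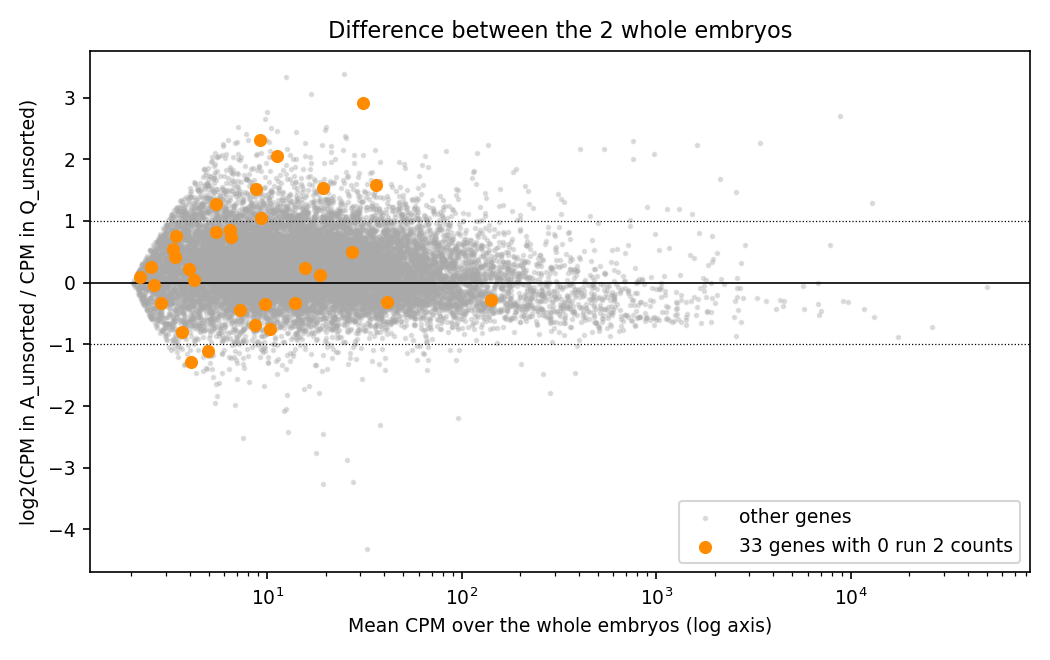
log2 ratio of CPM in A_unsorted over Q_unsorted (y axis) against mean CPM over the 2 whole embryos (x axis, log), 1 point per gene with at least 2 CPM in both embryos. Dotted lines mark 2-fold, and 10 of the 33 orange points lie beyond them, 8 above and 2 below.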

How the data were processed

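The data are 8 polyA RNA libraries prepared with SMART-seq v4 and Nextera XT, both of which lose strand. Reads were mapped with STAR against GRCz10, and the authors deposited raw whole-number counts of every gene in 1 column that ignores strand and 1 for each strand. Reads on several loci are left out. Q_1 carries sample number 2 in its title and 1 in its source name, and was grouped by the source name.

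CPM was the strand-free count divided by the library's sum over genes. Run 1 sorted cells were compared with whole embryos in edgeR 4.0.16 (R 4.3.3) by the quasi-likelihood test with TMM, filterByExpr and Benjamini-Hochberg adjustment at 0.05. SE is the absolute log2 change divided by the square root of the test's F statistic, so it is derived from the test. On simulated counts the script was tested before use. DESeq2 1.42.0, other scalings and filters, the kit as a block, the strand columns, other count and CPM limits and leaving out each library were alternatives. Limits are 3 counts over a group. Symbols were found for 27000 of 35117 IDs, and 23 of the 33 genes matched RefSeq (GRCz12tu), whose gene order alone was used. No sequences are shown.

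Named genes were those of highest embryo level (15 in all), most run 1 counts, highest level in each name class with at least 3 of the 33, nearest the limits, with strand column counts, and with the largest embryo ratios. Relatives of the genes were chosen after their values were seen. The genes, classes and lists were chosen with earlier results of these data known.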

Additional observations from a re-analysis of the deposited data

Results flagged for a closer look

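Strand column counts in run 2 sorted cells, in data outside the main measurement, drew attention to 3 of the 33 genes, each above the limit of 3 counts. Summed over A_2a, A_2b, Q_2a and Q_2b they were 1047 for si:dkey-146l2.3, 126 for gnrh3 and 18 for sst2, where the column that ignores strand had 0. Whether these reads come from the genes or from partners on the other strand was not tested.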

How the results depend on the processing

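The number of genes chosen was 53 with up to 1 count over run 2 allowed, 98 with up to 3, 59 with an embryo minimum of 1 CPM and 14 with 5 CPM. Leaving out 1 library gave 40 to 49, and without A_2a or Q_2b it was 49. The number with 0 counts in run 1 was 30 when up to 3 counts were allowed, and 21 to 27 with 1 run 1 library left out. The number lower in run 1 sorted cells was 32 with DESeq2, with the kit as a replicate block and with every other scaling or filter tried. The embryo minimum had already fixed a high value on one side in each of these. Of all genes tested, 22.9% were lower with DESeq2, 17.35% without a filter on low counts and 26.1% with at least 1 CPM in 2 libraries. The kit numbers do not pair animals, and the kit deviations of sorted cells and embryos had a Spearman correlation of -0.11 over 20254 genes. The block moved the count of all genes called lower to 4866. The median log2 ratio of the embryos was 0.0096 with TMM, which shifts every gene by -0.23, and -0.078 with an embryo minimum of 5 CPM, which keeps 14 of the genes. Over the single genes and these alternatives 329 calls were the same and 1 was not, that of gnrh3 without Q_1. Depth limits run 2 to 0.0476 CPM and run 1 to 0.1175 CPM.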

Other observations

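These genes were picked after their values were seen, and no test was made. Besides the 33 genes, 16 genes had a mean embryo level of at least 50 CPM and up to 20 counts over run 2. Among them apobb.1, an apolipoprotein B gene of liver, gut and yolk, had 7 and 4 counts in A_1 and Q_1, 10 and 0 in A_2a and A_2b, and 6 and 0 in Q_2a and Q_2b, against 1576 and 369.5 CPM in A_unsorted and Q_unsorted. crybgx, a crystallin-related gene by name, had 0 counts in run 1 and 8 over run 2, against 372.1 and 495.0 CPM in A_unsorted and Q_unsorted.

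Some pancreatic enzyme genes had no count in run 1. prss59.2, a trypsinogen-like serine protease, had 0 counts in A_1 and Q_1 and was counted in run 2, with 2.01 and 1.86 CPM in A_2a and A_2b and 19.8 and 19.1 CPM in Q_2a and Q_2b, against 475.4 and 817.4 CPM in A_unsorted and Q_unsorted. ctrb.3 likewise had 0 counts in run 1, 2 and 0 counts in A_2a and A_2b, and 18 and 10 in Q_2a and Q_2b. The elastase gene ela2 went the other way, with 6 and 3 counts in A_1 and Q_1 and 3 over run 2. The matched genes of the exocrine pancreas list summed to 93.0 and 114.3 CPM in A_1 and Q_1 and 129.1 to 177.0 CPM in run 2. In A_unsorted and Q_unsorted they summed to 1596 and 2633 CPM. Of the 83 genes with 0 counts in run 1 that were counted in run 2, 8 had a mean embryo level of at least 50 CPM.

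For the heart myosin genes, counts were mostly in run 1. cmlc1 had 256 and 43 counts in A_1 and Q_1 and 3 over run 2, against 23.1 and 39.3 CPM in A_unsorted and Q_unsorted. MYL7 had 284 and 34 counts in A_1 and Q_1 and between 1 and 6 in the run 2 libraries. The nppa counts were in Q_1 alone, while both myosin genes were higher in A_1 than in Q_1.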
